A study of Mus musculus with 11 samples.

Results

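All knockout libraries of the series were compared with the control libraries. The comparison takes in all 11 libraries, 8 from mice in which Nfasc, Ank3 or both were targeted and 3 from control mice, and asks which transcripts differed from control whichever gene of the axon initial segment (AIS) was targeted. Members were taken by genotype label: 3 libraries of Pcp2-Cre;NfascFx/Fx mice (NFKO), 2 of Pcp2-Cre;AnkGFx/Fx mice (AnkGKO), 3 of Pcp2-Cre;NfascFx/Fx;AnkGFx/Fx mice (DKO) and 3 labelled Control. Per the paper's methods, controls carried floxed alleles without Pcp2-Cre, although its results text writes their genotype with Cre. Read with the methods, every knockout library carried Cre and no control library did, so Cre itself and loss of the targeted genes cannot be told apart in this comparison. All mice were untreated littermates of mixed sex from 1 labelled batch. The sample descriptions give C57BL/6J mice at postnatal day 30 and the growth protocol a mixed C57BL/6J;129 background at postnatal day 32. The paper's methods count 3 AnkGKO mice, whereas the labels list 2 libraries.

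The AIS is the stretch of axon next to the soma where action potentials start. AnkG, the product of Ank3, is the scaffold that anchors sodium channels and adhesion proteins there. NF186, the neuronal product of Nfasc, is an adhesion molecule that AnkG holds in place, and another product of Nfasc, NF155, is made by myelinating glia. Pcp2-Cre is active mainly in Purkinje cells, the output neurons of the cerebellar cortex. RNA came from whole tissue, in which fewer cells of a type and less RNA per cell cannot be told apart.

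Reads assigned to genes totalled 38890851 to 48540837 per control library and 42362218 to 55822361 per knockout library. Levels are given as CPM, the counts scaled to library size by the TMM method, and 3 counts correspond to 0.0546 to 0.0780 CPM. The labelled tissue was checked against its markers. Control 1 and NFKO 1 had 26.3 and 28.3 CPM of Pcp2, a Purkinje cell gene, but the other 9 libraries had at most 2.14 CPM, where Gabra6 of granule cells was at most 4.41 CPM. The caudal Hox genes, which mark spinal cord rather than cerebellum, summed to 396 to 617 CPM in control and 481 to 605 CPM in knockout libraries. The Hox sums were 533 CPM in control 1 and 584 CPM in NFKO 1, so these markers went against the label in every library. In the other 9 libraries the low Pcp2 and Gabra6 went against it as well. Xist was high in control 1, control 2, DKO 2 and DKO 3 (459 to 598 CPM), which are 2 of 3 control and 2 of 8 knockout libraries. Control 1 and DKO 1 held both Xist and Y-linked counts, with Ddx3y at 7.20 and 108 CPM. Without control 1 and NFKO 1, or without control 2 and DKO 1, the same 2 genes were called.

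A pair of genes separated the knockout from the control libraries. Thy1 rose and Cadps fell, and of 17557 genes tested no other passed the test. Thy1 encodes a GPI-anchored glycoprotein of the immunoglobulin superfamily that is abundant on the surface of many neurons. Cadps encodes CAPS1, which primes dense-core vesicles for calcium-triggered release. A gene was called where its adjusted p was under 0.05 and its log2 fold change was 0.6 or more in either direction, in the edgeR quasi-likelihood test of 2 groups, adjusted by Benjamini-Hochberg. The gene called higher and the gene called lower each made up 0.0057% of genes tested (0.0114% in both directions). At an unadjusted p under 0.05 there were 401 higher (2.28%) and 264 lower genes (1.5%), together 3.79%. With no change in any gene, a fraction of about 0.05 would be expected, so this share was not above chance. P-values measure the spread between these libraries, which the labels name as biological replicates.

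Thy1 was at 703, 689 and 730 CPM in the control libraries. The NFKO libraries had 1726, 1371 and 1787 CPM, the AnkGKO libraries 1901 and 1749, and the DKO libraries 1685, 1783 and 1743. The lowest knockout library, NFKO 2, thus stood far above the highest control, and the groups did not overlap. The log2 fold change was 1.28 (standard error, SE, 0.08, adjusted p = 1.67e-05 by edgeR quasi-likelihood, Benjamini-Hochberg adjusted), which is 2.43-fold with a 95% interval of 2.14 to 2.75. By genotype, the log2 fold change was 1.20 in NFKO, 1.37 in AnkGKO and 1.30 in DKO, and the test for a difference among the knockout genotypes gave an adjusted p of 0.655 by edgeR quasi-likelihood, Benjamini-Hochberg adjusted. Under the 25 alternatives tried, the log2 fold change ranged from 1.25 to 1.32 and the call held in each. Thy1 lies on chromosome 9 of GRCm39 from 43954332 to 43959880 on the plus strand.

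Cadps was at 529, 494 and 542 CPM in the control libraries. The NFKO libraries had 262, 234 and 241 CPM, the AnkGKO libraries 244 and 270, and the DKO libraries 292, 232 and 286. Every knockout library was well below the lowest control, with no overlap. The log2 fold change was -1.02 (SE 0.07, adjusted p = 2.46e-05 by edgeR quasi-likelihood, Benjamini-Hochberg adjusted), so the knockout level was 0.494 of the control level, with a 95% interval of 0.443 to 0.551. By genotype, the log2 fold change was -1.09 in NFKO, -1.02 in AnkGKO and -0.95 in DKO, with an adjusted p of 0.693 for a difference among them in the same edgeR test. It ranged from -1.09 to -0.98 over the 25 alternatives, and the call held in each. Cadps lies on chromosome 14 of GRCm39 from 9646283 to 10097665 on the plus strand, where the annotation also places noncoding genes and pseudogenes within its span, so its counts may include reads from these.

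**Figure D1:**
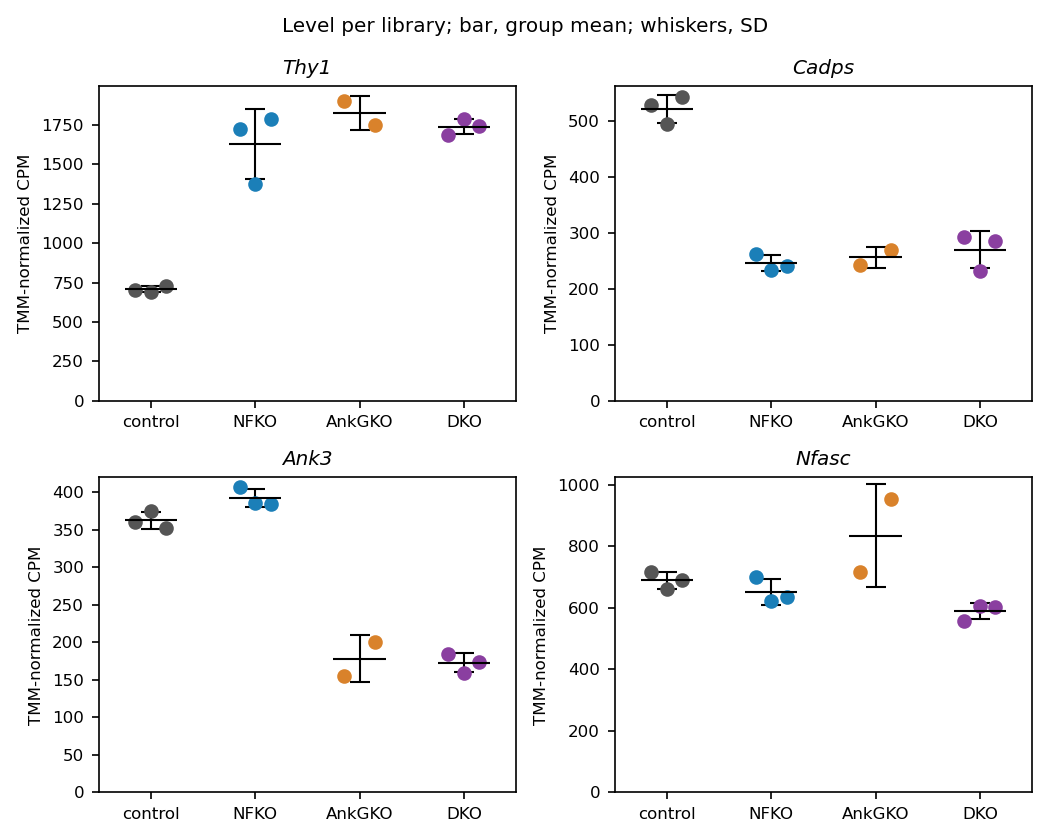
TMM-normalized CPM (vertical axis, from 0) of Thy1, Cadps, Ank3 and Nfasc in each library, by genotype (horizontal axis), with bars at the group mean and whiskers of 1 SD over 3 control, 3 NFKO, 2 AnkGKO and 3 DKO libraries. Thy1 was at 1371 CPM or above in every knockout library and at most 730 in control; Cadps was at most 292 in the knockouts and at least 494 in control, while Ank3 was low in AnkGKO and DKO only.

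The genes around both loci were examined next. Of 38 tested genes whose start lies within 1000 kb of the start of Thy1, 0 were called by edgeR, 2 had an unadjusted p under 0.05 and 0 had groups without overlap. Their median log2 fold change was 0.02. Those 2 were Rnf26, an E3 ubiquitin ligase, at a log2 fold change of 0.44 (SE 0.15) and Trappc4, a subunit of the TRAPP trafficking complexes, at 0.25 (SE 0.09). Only 3 tested genes lay as close to Cadps, of which 0 were called and 0 had an unadjusted p under 0.05, and Synpr, which encodes the vesicle protein synaptoporin, was the only one over 1 CPM. Synpr was at a mean of 35.0 CPM in control and 31.9 CPM in knockout libraries, a log2 fold change of -0.14 (SE 0.14). These neighbours were chosen for their position after the calls were known.

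The targeted genes did not pass the pooled test, in which genotypes with and without the floxed gene are averaged. Ank3 had 360, 375 and 353 CPM in the control libraries and 407, 386 and 385 in the NFKO libraries. The AnkGKO libraries had 156 and 200 CPM and the DKO libraries 185, 160 and 174. All 5 libraries in which Ank3 was targeted were below all others, and the 3 in which it was not were above the controls. The pooled log2 fold change was -0.50 (SE 0.35, adjusted p = 1.0 by edgeR quasi-likelihood, Benjamini-Hochberg adjusted), and the genotypes differed with an adjusted p of 6.04e-05 in the same edgeR framework. Nfasc had 718, 661 and 690 CPM in the control libraries. Its NFKO libraries had 701, 622 and 635 CPM, its AnkGKO libraries 717 and 953, and its DKO libraries 559, 606 and 603. Its pooled log2 fold change was -0.03 (SE 0.13), and NFKO overlapped control while DKO was below it. Nfasc counts cover neuronal and glial products together. Their counts may include reads of noncoding genes within the spans of Ank3 and Nfasc.

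**Figure D2:**
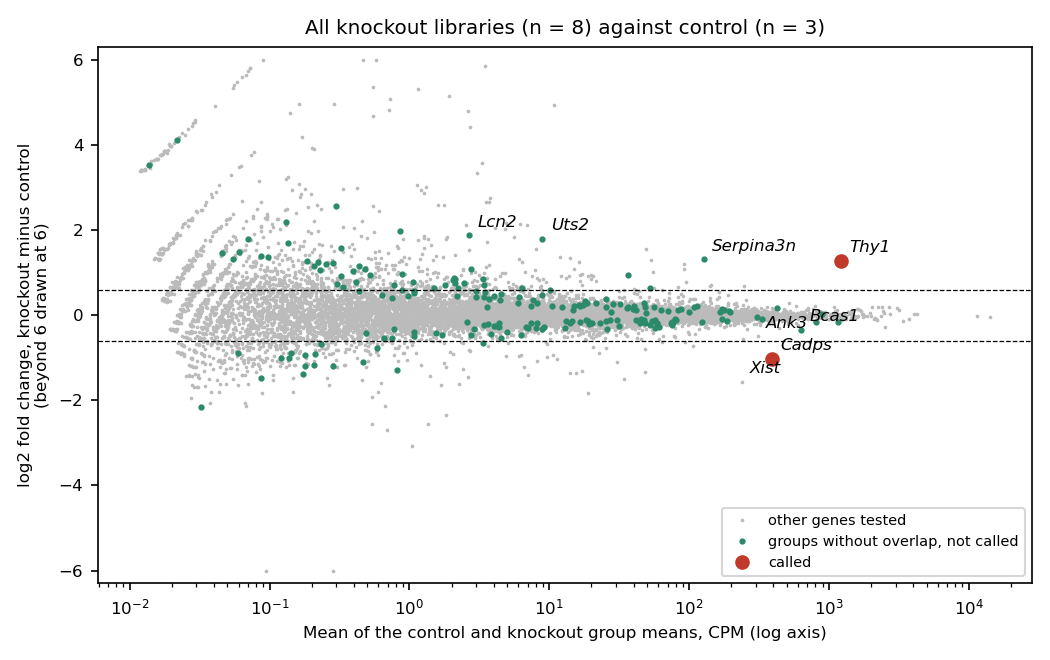
Log2 fold change of knockout minus control (vertical axis, values beyond 6 drawn at 6) against the mean of the 2 group means in CPM (horizontal log axis) for 17557 genes; red points are called, green points have groups without overlap, dashed lines mark 0.6 in each direction. Thy1 and Cadps stand outside the lines at high level, whereas 1198 of the 1459 genes past 0.6 lay under 1 CPM.

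The size of change that the data could have missed was read from the intervals. The median standard error of a log2 fold change was 0.110, and for 12138 genes (69.1%) the 95% interval lay wholly within 0.6 of no change in either direction. That share was 97.8% of the 2392 genes over 100 CPM, 94.5% of 7847 genes at 10 to 100 CPM, 62.9% of 3671 genes at 1 to 10 CPM and 1.92% of 3647 genes under 1 CPM. For weakly expressed genes a change of this size was thus mostly not detectable at this depth and number of libraries.

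No separation of whole libraries by the presence of a knockout was detected. Over the 500 most variable genes, control libraries lay 15.4 units apart on average (13.3 to 17.1, 3 pairs) on the variance-stabilized scale, control and knockout libraries 16.4 apart (9.98 to 26.0, 24 pairs) and knockout libraries 17.7 apart (10.1 to 27.5, 28 pairs). The distance between the groups was within that inside them. The ratio of variation between the groups to that within them (pseudo-F) was 0.821, and 99 of all the ways to divide the libraries into 8 and 3 gave a ratio as large (exact permutation test, one-sided, p = 0.6, where 0.00606 is the smallest possible).

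Genes with the next smallest p-values included Esr1 and Bcas1, chosen after their values were seen, and none passed the adjusted threshold in edgeR. Esr1, the estrogen receptor alpha gene, was at 4.06, 4.79 and 6.07 CPM in control and at 6.92 to 8.50 CPM (median 7.99) in knockout libraries. The groups did not overlap, and the log2 fold change was 0.65 (SE 0.12, adjusted p = 0.84 by edgeR quasi-likelihood, Benjamini-Hochberg adjusted). Bcas1, a marker of newly myelinating oligodendrocytes, was at 629, 730 and 765 CPM in control and at 519 to 620 CPM (median 557) in knockout libraries, again without overlap. Its log2 fold change was -0.34 (SE 0.07). In DESeq2 with Benjamini-Hochberg adjustment, both passed 0.05, with adjusted p of 2.18e-04 for Esr1 and 0.00522 for Bcas1, and Esr1 also passed the fold threshold. The other genes under an adjusted p of 0.05 in DESeq2, besides Thy1, Cadps and H2-Ea-ps, were Entpd2, an ectonucleotidase (0.0157), Abi3, an actin regulator of microglia (0.0394), and Csf2rb, a receptor subunit for hematopoietic cytokines (0.0394). Entpd2 had a median of 15.7 CPM in control and 19.9 CPM in knockout libraries. Abi3 was at 3.46 to 4.07 and 4.57 to 5.78 CPM, and Csf2rb at 1.71 to 1.95 and 2.41 to 3.79 CPM, in control and knockout libraries. None of these 3 had overlapping groups. H2-Ea-ps, a class II gene, was at 0 CPM in control, at 3.56 and 5.66 CPM in NFKO 1 and NFKO 2, and at 0 to 0.0182 CPM in the other knockouts.

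Groups without overlap were more common than calls. All 8 knockout libraries were above all 3 controls for 111 genes (0.632% of genes tested) and below them for 87 (0.496%). If genotype had no effect, a gene would have all 8 above all 3 with a probability of 0.00606. The same probability holds for lying below, so both shares were close to chance. Lack of overlap alone, for any gene named in the report, thus does not separate a change from chance. Of the higher genes over 1 CPM, Lcn2, which encodes the siderophore-binding protein lipocalin 2, had a log2 fold change of 1.88 ± 0.69 (SE). Its levels were 0.962, 1.11 and 1.33 CPM in control and 1.44 to 9.85 CPM (median 2.72) in knockout libraries, and the knockouts varied among themselves far more than the controls. Uts2, the gene of the peptide urotensin 2 made by motor neurons, was at 2.36 to 5.67 CPM in control and 6.23 to 27.0 CPM in knockout libraries (log2 fold change 1.79, standard error 0.62). The DKO libraries, at 22.8, 27.0 and 22.8 CPM, stood above the other knockouts. Other such genes were Agxt2l1, the phospholyase gene now called Etnppl, and the stress-response factor Atf3, at log2 fold changes of 0.94 and 0.88.

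Most microglial genes had positive log2 fold changes, though none was called. Microglia are the resident phagocytes of the central nervous system, and their activation genes encode Fc receptors, complement receptors, lysosomal enzymes and subunits of the phagocyte oxidase. Of 28 activated microglia genes, 26 had a positive log2 fold change, with a median of 0.25 beside 0.003 over all genes, of which 51.3% were positive. At an unadjusted p under 0.05, 13 were higher and 0 lower, beside 2.28% and 1.5% of all genes. The summed level of the list was 4131 to 4301 CPM in control and 4249 to 5065 CPM in knockout libraries, and 7 of 8 knockout libraries were above every control. The median ranged from 0.19 to 0.37 over the alternatives. Of 26 homeostatic microglia genes, 24 were positive (median 0.20, and 0.35 without control 2), with 6 higher and 1 lower at an unadjusted p under 0.05.

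Fcgr3, the low-affinity immunoglobulin receptor III, was at 7.28, 9.38 and 7.57 CPM in control and at 10.4 to 17.2 CPM (median 11.6) in knockout libraries. The log2 fold change was 0.59 (SE 0.15) without overlap. Cybb, the catalytic subunit of the phagocyte NADPH oxidase, was at 1.25, 1.93 and 2.10 CPM in control and 2.15 to 5.49 CPM (median 3.93) in knockout libraries. The groups did not overlap, though the lowest knockout library, DKO 3, lay next to the highest control, and the log2 fold change was 1.09 ± 0.29 (SE). Clec7a, the beta-glucan receptor dectin-1, was at 1.51, 2.56 and 1.48 CPM in control and 2.38 to 7.26 CPM in knockout libraries, where AnkGKO 1 was highest and NFKO 3 was below the highest control. Csf1r, the receptor for the growth factors on which microglia depend, was at 100.4, 126 and 107 CPM in control and 119 to 151 CPM in knockout libraries, a log2 fold change of 0.27 (SE 0.08) with overlap. Among homeostatic genes, Ptprc (CD45) and Laptm5 had log2 fold changes of 0.63 and 0.30, and for both DKO 1 lay among the controls. Mertk, a receptor for the uptake of apoptotic cells, had a log2 fold change of -0.47 ± 0.18 (SE).

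**Figure D3:**
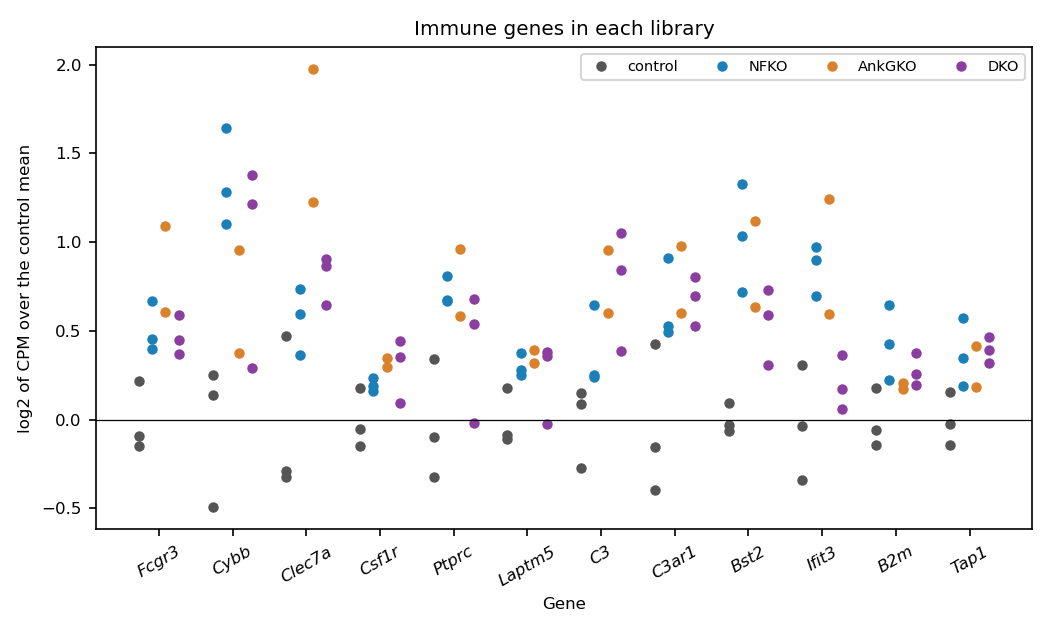
Log2 of CPM over the control mean (vertical axis) of 12 microglial, complement, interferon and antigen presentation genes (horizontal axis) in each of the 11 libraries, colored by genotype. Most knockout points lie above the control points, as for Fcgr3 (control 7.28 to 9.38 CPM, knockout 10.4 to 17.2 CPM), while DKO 1 lies among the controls for Ptprc and Laptm5; no gene shown was called. Apart from Clec7a and Csf1r, named by the paper, the genes were chosen for the smallest unadjusted p for a higher level in their list. Their position above control was thus set by that choice.

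Complement, interferon and antigen presentation genes also had mostly positive log2 fold changes. Of 23 complement genes, 20 were positive (median 0.35, 3 higher and 0 lower at an unadjusted p under 0.05). C3, the central complement component, was at 43.3, 45.2 and 33.8 CPM in control and 48.1 to 84.4 CPM in knockout libraries (log2 fold change 0.65, standard error 0.19). C3ar1, the receptor for its fragment C3a, was at 1.98 to 3.50 CPM in control and 3.67 to 5.14 CPM in knockout libraries (log2 fold change 0.70, standard error 0.18). Both were without overlap. The median of the complement list was 0.18 without control 1, 0.22 without NFKO 2 and 0.20 without DKO 2.

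Of 33 interferon response genes, 30 were positive with a median of 0.36, and 9 were higher and 0 lower at an unadjusted p under 0.05. Bst2, which encodes the antiviral membrane protein tetherin, was at 2.29 to 2.56 CPM in control and 2.96 to 6.01 CPM in knockout libraries, without overlap (log2 fold change 0.84, standard error 0.20). By genotype, the list's median was 0.49 in NFKO, 0.35 in AnkGKO and 0.07 in DKO, and without all NFKO libraries the pooled median was 0.20. Of 23 major histocompatibility genes, 19 were positive (median 0.29, 4 higher and 0 lower). The median by genotype was 0.44 in NFKO, -0.09 in AnkGKO and 0.15 in DKO. B2m, the light chain of class I molecules, had a log2 fold change of 0.32 ± 0.10 (SE), with AnkGKO 2 at 85.0 CPM just under the highest control at 85.4. The median of this list was 0.07 without all NFKO libraries and 0.16 without control 1.

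Markers of tissue outside the neural parenchyma were measured beside the immune lists. All 23 meningeal fibroblast and collagen genes had a positive log2 fold change (median 0.38, 2 with an unadjusted p under 0.05), and 19 of 20 skeletal muscle genes were positive (median 0.86, 0 with an unadjusted p under 0.05). The meningeal sum was 1012 to 2294 CPM in control and 1149 to 4218 CPM in knockout libraries, highest in NFKO 2. The median of the meningeal list was 0.10 without control 1, 0.81 without control 2, 0.09 without NFKO 2 and -0.16 without all NFKO libraries. The muscle sum was 166 to 233 CPM in control and 109 to 867 CPM in knockout libraries, again highest in NFKO 2. It was above every control in 3 knockout libraries and below every control in 5. The median of the muscle list was -0.20 without NFKO 2 and 1.36 without control 2, and by genotype 1.75 in NFKO, -3.36 in AnkGKO and 0.46 in DKO. Peripheral myelin genes summed to 328 to 514 CPM in control and 283 to 750 CPM in knockout libraries (13 of 16 positive, median 0.47, and 0.27 without control 1). With the meningeal sum as a covariate, the median of the activated microglia list was 0.24 and Thy1 and Cadps were called, while the median of the complement list was 0.21. The part of these markers in the immune lists was otherwise not tested.

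Astrocyte genes showed a spread among the knockouts. Of 34 reactive astrocyte genes, 31 were positive with a median of 0.23, and 6 were higher and 0 lower at an unadjusted p under 0.05. Their sum was 2858 to 3543 CPM in control and 2989 to 4792 CPM in knockout libraries, with AnkGKO 1 and DKO 2 highest and the 3 NFKO libraries within the control range. Serpina3n, a secreted inhibitor of serine proteases and a common mark of reactive astrocytes, was at 73.0, 75.7 and 70.4 CPM in control. The NFKO libraries had 237, 217 and 264 CPM, the AnkGKO libraries 270 and 184, and the DKO libraries 103, 89.7 and 84.2. Every knockout library was above every control, and the DKO libraries were the lowest of the 8. The pooled log2 fold change was 1.31 (SE 0.43, adjusted p = 1.0 by edgeR quasi-likelihood, Benjamini-Hochberg adjusted), and the knockout genotypes differed with an adjusted p of 0.00102 in the same test framework. Serpina3n belongs to a cluster of near-identical genes, of which 7 were tested and 6 were positive, so that reads may be divided between them.

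Stress and injury lists had medians closer to 0. Of 34 axon injury and regeneration genes, 28 were positive with a median of 0.11, with 7 higher and 0 lower at an unadjusted p under 0.05. Tubb6, a beta-tubulin isotype raised in injured axons, was at 2.18 to 2.74 CPM in control and 2.71 to 5.04 CPM in knockout libraries (log2 fold change 0.66, standard error 0.19), with 1 knockout library inside the control range. Csf1, a growth factor for microglia, had a log2 fold change of 0.20 ± 0.06 (SE). The integrated stress response list had a median of 0.07 (25 of 34 positive, 1 higher). Immediate early genes had a median of 0.06, which ranged from 0.01 to 0.14 with 1 library left out, and 0 of 32 reached an unadjusted p under 0.05.

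**Figure D4:**
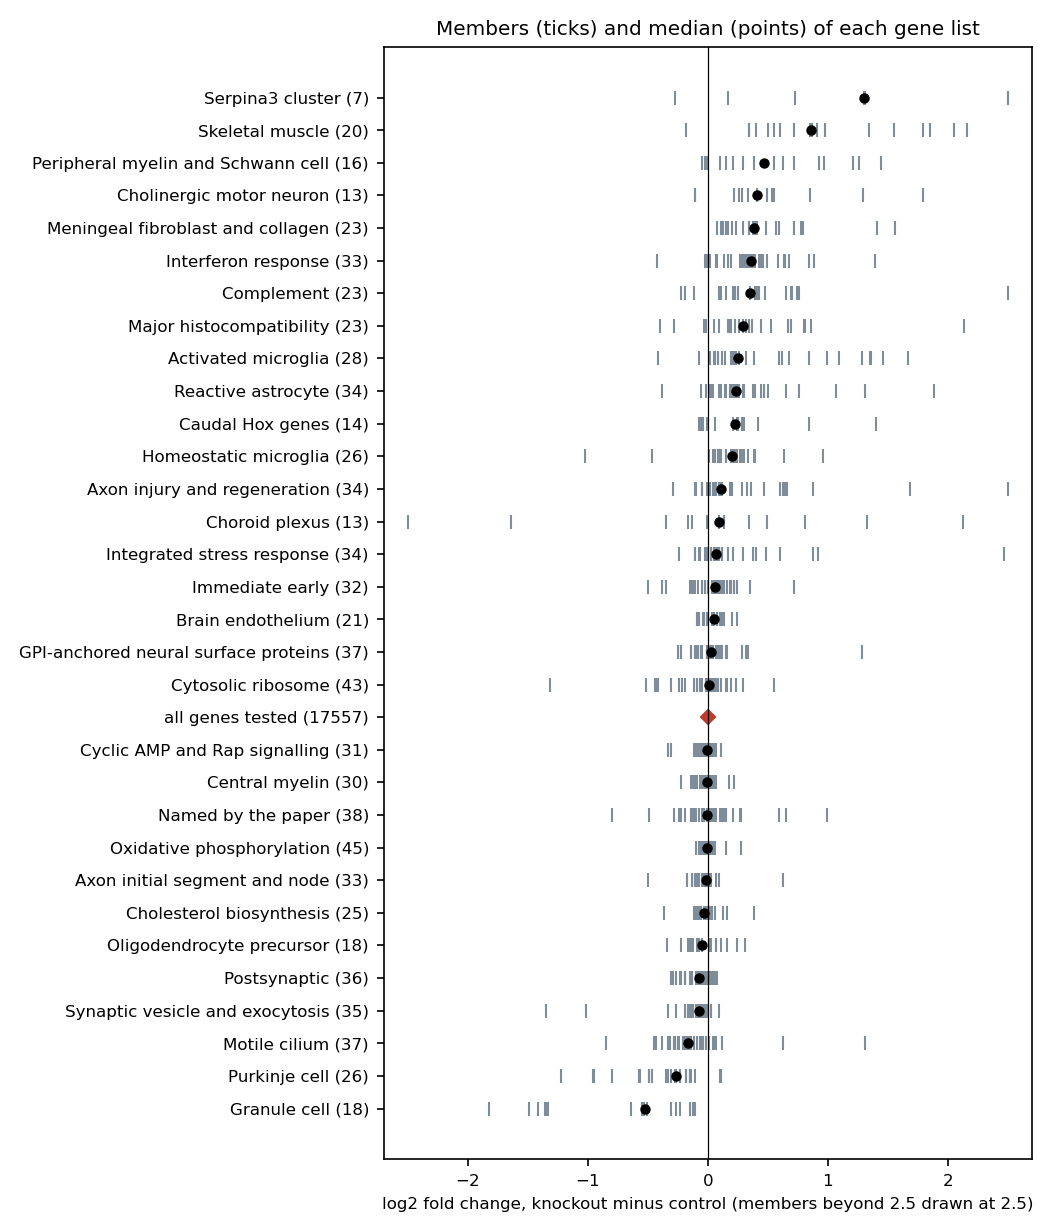
Log2 fold change of knockout minus control (horizontal axis) for the members of 31 gene lists (rows, with the number tested), as ticks, and each list's median, as a point; values beyond 2.5 are drawn at 2.5. The red diamond is the median of 17557 genes at 0.003, the Serpina3, muscle and peripheral myelin lists stand highest and the Purkinje and granule cell lists lowest.

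The synaptic, AIS and signalling lists had medians close to 0. Of 35 synaptic vesicle and exocytosis genes, 32 were negative, but the median was only -0.08, and 32 had an interval within 0.6 of no change. Besides Cadps, the genes with an unadjusted p under 0.05 included Rims1, an active zone scaffold, with a log2 fold change of -0.27 ± 0.09 (SE), and 0 genes of the list were higher at that level against 6 lower. Snap25, a SNARE protein of vesicle fusion, was at 3619, 3285 and 3663 CPM in control and 2931 to 3476 CPM in knockout libraries (log2 fold change -0.14, standard error 0.06). The postsynaptic list had a median of -0.07 (28 of 36 negative). Gria1, an AMPA receptor subunit, was the 1 gene of it with an unadjusted p under 0.05, at a log2 fold change of -0.22 (SE 0.09).

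The AIS and node list, which holds the partners of AnkG and NF186, had a median of -0.01 over 33 genes, and for 31 of them the interval lay within 0.6 of no change. Gldn, a nodal ligand of neurofascin released by Schwann cells, had a log2 fold change of 0.63 ± 0.24 (SE), and Trim46, which bundles microtubules at the AIS, had -0.14 (SE 0.05). Trim46 was at 55.8 to 58.8 CPM in control and 48.3 to 54.8 CPM in knockout libraries, without overlap. Thy1 was the only GPI-anchored surface protein gene called among 37, and the median of that list was 0.02. The 31 genes of cyclic AMP and Rap signalling had a median of -0.01. Within that list Rapgef4, a Rap exchange factor activated by cyclic AMP, had 263 to 285 CPM in NFKO, overlapping the 273 to 301 CPM of control, and 189 to 209 CPM in the other knockouts.

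Purkinje cell genes were negative in 24 of 26 and granule cell genes in 18 of 18, with medians of -0.27 and -0.52. Both medians turned positive without control 1, to 0.07 and 0.10, and were -0.42 and -0.80 without control 3. No gene of either list was called. The calcium channel gene Cacna1g had a log2 fold change of -0.33 ± 0.13 (SE), which was -0.18 without control 1, and the vesicular GABA transporter gene Slc32a1 one of -0.15 (SE 0.06). Motor neuron genes had a median of 0.41, and of 0.19 without control 2 (11 of 13 positive, 2 higher at an unadjusted p under 0.05), and the median by genotype was 0.12 in NFKO, 0.39 in AnkGKO and 0.75 in DKO. The caudal Hox list had a median of 0.22 that turned to -0.06 without control 2 and was 0.40 and 0.43 without control 1 and control 3.

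The central myelin and oxidative phosphorylation lists served as large, well-measured groups, and other lists are given beside them. Central myelin genes had a median of -0.01, and 29 of 30 intervals were within 0.6. Oligodendrocyte precursor genes had a median of -0.05, and their sum was below every control in 7 of 8 knockout libraries. Of these genes 2 were lower at an unadjusted p under 0.05, Bcas1 and Olig2. Olig2, a lineage transcription factor, was at 81.0 to 81.7 CPM in control and 53.6 to 75.2 CPM in knockout libraries without overlap. Oxidative phosphorylation genes had a median of -0.01 with 43 of 45 intervals within 0.6 and 0 at an unadjusted p under 0.05. Cytosolic ribosome genes had a median of 0.01, cholesterol synthesis genes of -0.03, and endothelial genes of 0.05. Motile cilium genes had a median of -0.16, and of -0.05 without control 2, and choroid plexus genes one of 0.09 that ranged from -0.06 to 0.31 with 1 library left out. The interval lay within 0.6 for 25 of 43 ribosome, 14 of 37 motile cilium and 2 of 13 choroid plexus genes, so these lists were less well measured. Of 38 genes named in the paper's account of its RNA data, 0 were called in the pooled test. At an unadjusted p under 0.05, 4 were higher and 2 lower, and the median was -0.01. The paper took them from DESeq2 comparisons of separate genotypes, with qRT-PCR for some. It names genes in both directions, so the median does not measure agreement. Clec7a passed both thresholds in AnkGKO against control (log2 fold change 1.64, adjusted p = 0.034 by edgeR quasi-likelihood, Benjamini-Hochberg adjusted). Among the 38 genes, Apoe, Clu and Stat3, known as glial response genes, had pooled log2 fold changes of 0.15, 0.15 and 0.21, each with an interval that includes 0. These pooled values average genotypes that stood apart: the 3 genes were between -0.01 and 0.03 in NFKO, at 0.16, 0.21 and 0.22 in AnkGKO and at 0.28, 0.25 and 0.37 in DKO, in the same order.

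The pooled comparison averages over knockout genotypes that differ in some genes. In a fit of 4 genotypes, 137 genes differed among NFKO, AnkGKO and DKO (0.78% of genes tested, edgeR's quasi-likelihood F test). Against control, 64 genes were called in NFKO (0.365%), 29 in AnkGKO (0.165%) and 4 in DKO (0.0228%); these comparisons share the 3 control libraries. In each of the 3 same-numbered pairs of control and NFKO, the deviations from the group means were correlated. A fit of these 6 libraries alone that took the number as a block called 248 genes in NFKO, of which 60 were among the 64. When the 3 genotypes were weighted equally and their own spread was used as the error, 9 genes were called (0.0513%): Thy1, Cadps, Ank3, Serpina3n, H2-Bl, Lyrm7, Cwc22, Gm5148 and Rps3a. For the 7 besides Thy1 and Cadps the test among the knockout genotypes was passed as well.

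Besides Ank3 and Serpina3n, described above, the other 5 were set apart in 1 or 2 genotypes. Lyrm7, an assembly factor of respiratory complex III, was at 15.5 to 17.0 CPM in NFKO and 3.38 to 4.88 CPM in the other 8 libraries. Cwc22, a splicing factor with near-identical copies in some mouse strains, was at 51.0 and 56.7 CPM in AnkGKO and 8.71 to 9.99 CPM elsewhere. H2-Bl, a class I gene, was at 11.1 to 21.2 CPM in NFKO and AnkGKO and 1.57 to 2.92 CPM in control and DKO. The ribosomal protein gene Rps3a was at 0.371 to 1.91 CPM in NFKO and AnkGKO and 21.2 to 26.4 CPM in control and DKO. Gm5148 followed it, at 0 to 0.186 CPM in NFKO and AnkGKO and 3.15 to 3.91 CPM in control and DKO. Counts of class I genes, and of ribosomal protein genes with their many processed copies, are uncertain, since reads can be divided between near-identical sequences. In each of these 5 genes the DKO libraries overlapped the control libraries, whereas for Thy1 and Cadps no knockout library of any genotype did.

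**Figure D5:**
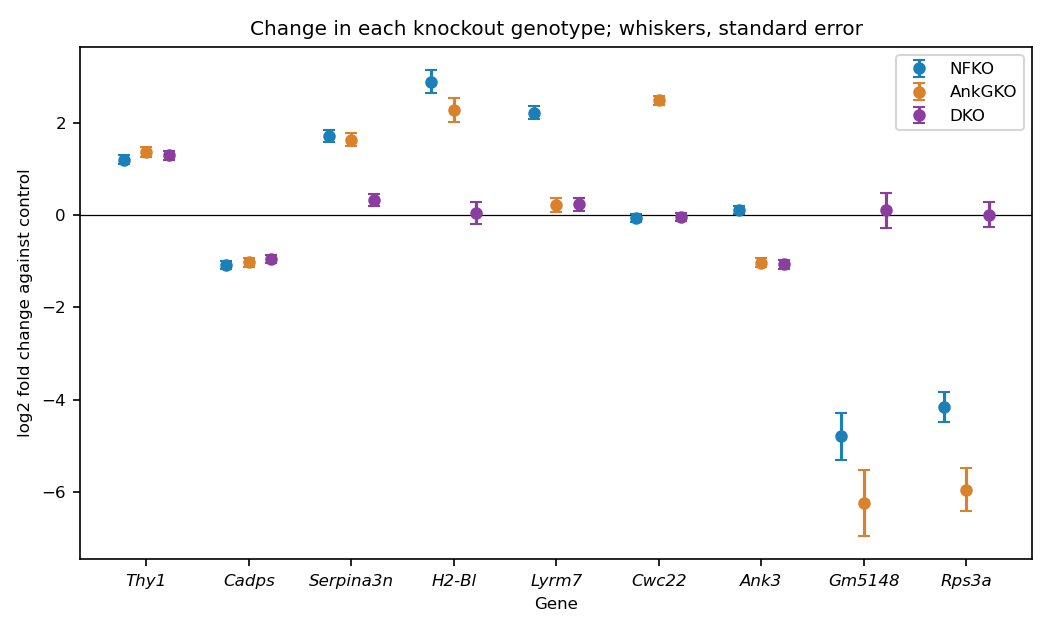
Log2 fold change against control (vertical axis) in NFKO, AnkGKO and DKO, with whiskers of 1 standard error, for the 9 genes called for the mean of the genotypes (horizontal axis). Thy1 (1.20, 1.37 and 1.30) and Cadps (-1.09, -1.02 and -0.95) changed in each genotype, whereas the points of the other genes are spread between genotypes.

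Further genes that differed among the knockouts with the smallest p-values were Tpm3 and Glo1, both set apart in NFKO. Tpm3, a tropomyosin gene, was at 8.44 to 8.59 CPM in NFKO and 23.8 to 29.7 CPM in the other libraries. Glo1, which encodes the methylglyoxal-detoxifying enzyme glyoxalase 1, was at 137 to 155 CPM in NFKO and 67.6 to 77.7 CPM elsewhere. Their pooled log2 fold changes were -0.41 (SE 0.45) and 0.50 (SE 0.30), neither past the test.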

How the data were processed

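Bulk poly(A) RNA-seq covered 11 libraries. Per the submitters' processing notes, Trimmomatic 0.39, STAR 2.7.11a and DESeq2 1.40.2 were used, with build GRCm39. The authors deposited raw read counts per gene; their normalized values were not used. The paper's methods name the gene counting option of STAR, and its strand setting is not given in the sources used here. The 5 summary rows (42.7% to 43.8% of each library's total) were left out, and 17557 of 22609 genes passed a minimum of 10 counts summed over the 11 libraries. Symbols are printed as in the count table, some of them older ones.

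Counts were fitted in edgeR 4.0.16 (R 4.3.3) with TMM normalization and robust quasi-likelihood tests in 2 groups, where differences between knockout genotypes count as spread, and in 4 genotypes, with Benjamini-Hochberg adjustment over all genes. Library distances used variance-stabilized counts from DESeq2 1.42.0. The steps were tested on simulated data. The floor of 3 counts covers counting error only. Other settings tried were DESeq2 (local dispersion fit), other size factors, filters and thresholds, covariates, a replicate block and leaving out libraries or genotypes; the meningeal covariate, and leaving out control 2 with DKO 1, were chosen after seeing the data, as was the replicate block for NFKO against control alone, the 2 groups in which every same-numbered pair had deviations correlated over 0.1. Replicate libraries differed beyond sampling noise.

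The comparison and gene lists were chosen with earlier results of these data known. Named are the targeted and called genes, up to 2 genes per list and direction with the smallest unadjusted p under 0.05, genes named by the paper, up to 5 genes that differ among knockouts, and Xist, Pcp2 and Gabra6; others, such as genes without overlap over 1 CPM, were chosen after their values were seen.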

Additional observations from a re-analysis of the deposited data

Results flagged for a closer look

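Among the 8 knockout libraries, single libraries stood apart from the rest for 8 named genes, by a gap to the nearest library of more than 0.526 of the range of the 8. Chance gives such a gap in about 1 in 20 groups, and every named gene was examined. AnkGKO 2 was highest for Nfasc at 953 CPM (nearest library 717). NFKO 2 was lowest for Thy1 at 1371 CPM (nearest 1685), still above every control. DKO 1 was lowest for Laptm5 at 34.2 CPM and highest for Agxt2l1 at 103 CPM. AnkGKO 1 was highest for Fcgr3 at 17.2 CPM and for Clec7a at 7.26 CPM. NFKO 1 was highest for Pcp2 at 28.3 CPM and for Gabra6 at 59.0 CPM.

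Named genes whose log2 fold change differed among the knockout genotypes, by edgeR's quasi-likelihood F test with Benjamini-Hochberg adjustment, were Cwc22 (adjusted p = 3.34e-08), Tpm3 (7.34e-06), Glo1 (2.47e-05), Lyrm7 (2.89e-05), Ank3 (6.04e-05), Rps3a (1.61e-04), Gm5148 (4.25e-04), H2-Bl (6.55e-04), Serpina3n (0.00102), Rapgef4 (0.00483) and Uts2 (0.0121). Their levels by genotype are given in the report. Uts2 was highest in DKO, with log2 fold changes of 1.09 in NFKO, 0.67 in AnkGKO and 2.60 in DKO.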

How the results depend on the processing

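Thy1 and Cadps were called in every alternative for the pooled comparison. The count of calls was 2 in the main test, 5 with DESeq2 and a local dispersion fit (adding Esr1, Csf2rb and H2-Ea-ps, the last detected in NFKO 1, NFKO 2 and DKO 3 only), 9 for the mean of the genotypes, 14 without all DKO libraries, and 2 to 3 when each library was left out in turn; without control 3, Rps15a was added, and without all NFKO libraries, Ank3. With the replicate number as a block it was 2. Same-numbered libraries of different genotypes had deviations that correlated at a mean of 0.047 (-0.47 to 0.57 over 15 pairs) against -0.024 over 30 pairs with different numbers, so the numbers were not taken to pair the samples over all genotypes. All 3 pairs of control and NFKO libraries correlated over 0.1 (0.257 to 0.567), and for each other pair of genotypes at least 1 pair did not. For NFKO against control, 64 genes were called in the fit of 4 genotypes, 72 with only these 6 libraries and 248 when the replicate block was added; Thy1 and Cadps were called in each.

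The number of genes that differed among the knockouts was 137, and 1138 with DESeq2, 69 without control 1 and NFKO 1 together, 123 with the replicate block and 91 to 198 when each library was left out, the lowest without NFKO 1. The pseudo-F was 0.501 to 1.12 with 1 library left out, and no alternative reached p = 0.05 (lowest 0.333 by exact permutation). Of the log2 fold changes of single genes, that of Nfasc (main -0.03) was 0.0108 with the meningeal covariate, 0.0736 without all DKO libraries, 0.00295 without DKO 1, and -0.12 to 0.00295 with 1 library left out. Signs also turned for Cwc22 without AnkGKO (-0.0442), Tpm3 without NFKO (0.0126), Xist with itself as covariate (0.0142) and Pcp2 with the granule cell covariate (0.40). With 1 library left out, Pcp2 ranged from -4.26 to 2.29 and Gabra6 from -4.79 to 1.87, positive without control 1; the cause was not tested. Genes under 1 CPM are the main limit of depth. The 3 control libraries enter every comparison.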
